A study of Homo sapiens with 12 samples.

Results

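Long intergenic noncoding RNAs (lincRNAs) are transcripts that are made from their own genes between the protein-coding genes and are not known to encode a protein. The members described here were all genes that the deposited table classes as lincRNA and that held at least 600 raw counts summed over the 12 libraries. They were 166 of 7629 lincRNAs in the table, of which 4605 had at least 1 count, and stood among 58735 genes in all. The RNA came from Beas-2b, a human bronchial epithelial cell line that was immortalised, in a series that asks what role ANT1 has in pulmonary fibrosis. ANT1 is the adenine nucleotide translocase encoded by SLC25A4, which trades ATP made in mitochondria for ADP from outside. The 4 groups of 3 biological replicates were wild type cells in control medium, wild type cells given bleomycin, ANT1 knockout cells in control medium and ANT1 knockout cells given bleomycin. Knockout clones were made by CRISPR, and bleomycin, which breaks DNA, was given at 10 mg/ml for 2 days per the labels to bring on senescence. All 4 groups thus share the immortalised background of 1 line. The sources used here do not say how many knockout clones were sequenced, so clone and genotype cannot be told apart.

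A lincRNA can act where it is made, on neighbouring genes, or elsewhere as a scaffold or decoy for proteins and other RNAs. Others serve mainly as the host transcript from which a microRNA or a small nucleolar RNA (snoRNA) is cut. Several are direct targets of the tumour suppressor p53, which switches on both protein-coding and noncoding genes after DNA damage. Most lincRNAs are made at low levels, and many are restricted to a cell type or to a stress.

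RNA was selected on its poly(A) tail and sequenced, so mature microRNAs and snoRNAs were not measured, and what follows for those is the level of the host transcript. The library totals ran from 15.75 to 21.92 megacounts. Levels are given as CPM, the counts per megacount of a library after scaling, and as FPKM, which also divides by gene length and is the scale used here between genes. A count of 0 in a library allows up to 3 counts, or 0.137 to 0.190 CPM. Of the epithelial markers, 6 of 8 reached 1 CPM in at least 1 library (KRT5 and KRT14 did not), and their summed level lay between 1396 and 1755 CPM in the wild type controls. Of the fibroblast markers 4 of 8 reached 1 CPM, with LUM at 0 in every library, and their sum lay between 925 and 1559 CPM in wild type control, 770 and 802 CPM in wild type bleomycin, 942 and 3660 CPM in knockout control, and 693 and 917 CPM in knockout bleomycin. Of the leukocyte markers 2 of 8 reached 1 CPM, and their sum was 19.5 to 23.9 CPM in wild type control against 7.38 to 8.44 CPM in wild type bleomycin, and 29.9 to 41.0 CPM in knockout control against 7.11 to 11.3 CPM in knockout bleomycin. The part of those marker shifts in the lincRNA results was not tested. Replicate 2 of the knockout controls stood apart, with 0.364% of its counts on the mitochondrial chromosome against 3.86% to 5.13% elsewhere, so knockout values whose call, or size by over 1.5 times, turned on it are given with and without it, as are those named as having an outlying point. SLC25A4 itself was at 22.8, 16.6 and 18.3 CPM in the wild type controls and 5.08, 6.97 and 4.81 CPM in the knockout controls.

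Among the members, 13 hold at least 1 microRNA hairpin of the RefSeq table on their own strand. Of all genes tested, 43.5% passed the bleomycin test in wild type and 43.2% in knockout cells. No share over all genes is given for passing in at least 1 genotype, as all but 58 of the 166 members did. Of the 13 hosts, 10 passed in at least 1 genotype. Mature microRNAs of 7 of the 10 (not of CYTOR, MIR4435-2HG and FTX) are shown to say what the host transcripts named below carry, 5′ to 3′ from RefSeq (GRCh38.p14), with the seed (bases 2 to 8), which pairs with target messages, in capitals.
hsa-miR-34a-5p: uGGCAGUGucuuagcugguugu
hsa-miR-770-5p: uCCAGUACcacgugucagggcca
hsa-miR-221-3p: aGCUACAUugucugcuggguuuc
hsa-miR-222-3p: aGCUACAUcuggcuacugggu
hsa-miR-146a-5p: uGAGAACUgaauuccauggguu
hsa-miR-210-3p: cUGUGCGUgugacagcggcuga
hsa-miR-503-5p: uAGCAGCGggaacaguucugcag
hsa-let-7a-5p: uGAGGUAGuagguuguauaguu
hsa-let-7b-5p: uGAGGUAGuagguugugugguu
The first lies in an exon of MIR34AHG (chr1:9151735-9151756, minus strand), and miR-770-5p in an exon of MEG3 (chr14:100852409-100852431, plus strand). The pair miR-221-3p (chrX:45746180-45746202, minus) and miR-222-3p (chrX:45747036-45747056, minus) share a seed and lie in an intron of MIR222HG. miR-146a-5p lies in an exon of MIR3142HG (chr5:160485372-160485393, plus), miR-210-3p in an intron of MIR210HG (chr11:568112-568133, minus) and miR-503-5p in an intron of MIR503HG (chrX:134546371-134546393, minus). The let-7 pair, which also shares a seed, lies in exons of MIRLET7BHG (chr22:46112752-46112773 and chr22:46113691-46113712, plus).

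For 87 of the 166 members RefSeq held a promoter, the 250 bases before and 50 after the transcription start. RefSeq and GENCODE, whose gene ends the deposited table carries, place the start of a gene differently: for 73 of the 87 the starts lay within 1000 bases of each other, and for the other 14 up to 85123 bases apart, among them MEG3 (46698) and MIR34AHG (16568). The 4 rising members and 1 falling member below are shown because their changes carry the results, with letters in capitals where a script found TGACTCA (the AP-1 site), TGACNNNGC (the core of the antioxidant response element, bound by NRF2) or TTTGAA (the cell cycle homology region) on either strand.
LINC01629: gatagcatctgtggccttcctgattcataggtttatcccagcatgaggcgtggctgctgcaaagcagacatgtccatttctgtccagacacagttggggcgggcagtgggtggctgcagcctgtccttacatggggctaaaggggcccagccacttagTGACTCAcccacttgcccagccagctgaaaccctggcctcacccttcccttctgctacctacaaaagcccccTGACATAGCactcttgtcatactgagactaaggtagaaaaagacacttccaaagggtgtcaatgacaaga
MANCR: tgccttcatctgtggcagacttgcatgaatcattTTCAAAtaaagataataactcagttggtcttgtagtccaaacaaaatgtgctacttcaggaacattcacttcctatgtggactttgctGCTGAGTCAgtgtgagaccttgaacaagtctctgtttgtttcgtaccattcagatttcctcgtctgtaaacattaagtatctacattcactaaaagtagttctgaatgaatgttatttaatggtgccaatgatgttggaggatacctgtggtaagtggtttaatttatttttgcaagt
LNCTAM34A: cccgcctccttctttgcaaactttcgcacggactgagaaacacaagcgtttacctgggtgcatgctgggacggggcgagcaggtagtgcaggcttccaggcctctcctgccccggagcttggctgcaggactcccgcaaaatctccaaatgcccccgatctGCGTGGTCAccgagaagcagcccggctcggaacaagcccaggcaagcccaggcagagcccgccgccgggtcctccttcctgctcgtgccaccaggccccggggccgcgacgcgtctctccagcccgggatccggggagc
PURPL: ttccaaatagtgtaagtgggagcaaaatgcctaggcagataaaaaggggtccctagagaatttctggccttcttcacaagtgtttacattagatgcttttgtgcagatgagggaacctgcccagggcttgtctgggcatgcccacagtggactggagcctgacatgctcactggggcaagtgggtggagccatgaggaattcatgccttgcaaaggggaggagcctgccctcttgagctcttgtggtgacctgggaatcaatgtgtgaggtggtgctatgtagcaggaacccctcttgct
LINC01615: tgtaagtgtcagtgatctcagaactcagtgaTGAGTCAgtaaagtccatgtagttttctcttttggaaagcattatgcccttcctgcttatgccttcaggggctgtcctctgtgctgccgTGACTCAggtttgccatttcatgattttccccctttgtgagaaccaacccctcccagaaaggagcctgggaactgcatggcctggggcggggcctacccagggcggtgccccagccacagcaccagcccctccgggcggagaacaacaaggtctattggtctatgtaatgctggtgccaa
They lie at chr14:76959388-76959687 (plus), chr10:4678021-4678320 (minus), chr1:9181954-9182253 (plus), chr5:27472042-27472341 (plus) and chr6:169162940-169163239 (minus) of GRCh38.p14. In MANCR the AP-1 letters and the antioxidant letters overlap, and PURPL held none of the motifs searched. The AP-1 letters stood in 10.3% of the 87 member promoters against 4.95% of all 35116 RefSeq promoters, and among members in 10.3% of the 39 that rose in wild type cells, 20.0% of the 15 that fell and 6.06% of the 33 that did neither. The copies CYTOR and MIR4435-2HG both count among the 9 promoters with AP-1 letters. Over the 73 promoters with near starts alone, a choice made after seeing the data, 8 held AP-1 letters. The antioxidant letters stood in 24.1% of member promoters against 13.3% of all, and in 23.1% of risers, 26.7% of fallers and 24.2% of the rest. TTTGAA stood in 12.6% against 15.2%. Over the near starts these shares were 23.3% and 12.3%. The core of a p53 element, written as CATG, any 6 bases and CATG again, was found in 1 member promoter (1.15%, or 1.37% of the near starts, against 0.373% of all), that of LINC02035. These matches describe letters in a short window, not binding. Only that exact spelling of the p53 core was searched, so its absence does not show that a promoter lacks a p53 element.

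Most members were low. The median of their mean FPKM over the 12 libraries was 2.37 (0.202 to 95.4), against 7.46 for the 11397 protein-coding genes with at least 600 counts, and 139 of the 166 had a mean of at least 1 FPKM. Their median gene length was 2858.5 bases, 42 had a single exon in every annotated transcript, and 55 carried only a clone-based name. Counts were concentrated in few RNAs: the top member, NORAD, held 18.6% of all member counts, the top 2 (with NEAT1) 35.4%, the top 4 48.5% and the top 10 57.0%. At the threshold, LINC01583 (607 counts), AP006621.3 (605) and LINC01605 (604) lay just inside, and LINC00630 (594), AC005736.1 (589) and AC132872.1 (583) just outside. All 166 passed the filter on low counts, 155 had at least 10 counts in every library, and 4 had a library at 0.

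By mean FPKM the most abundant were NORAD (95.4), the clone-named AL161431.1 (45.8) and AL354766.2 (37.1), NEAT1 (20.3), SNHG8 (17.2), SNHG19 (14.1), MALAT1 (13.8), LINC00973 (13.7), HIF1A-AS2 (11.99), AC092171.2 (11.7), AL390728.6 (10.2) and MIR22HG (9.31). NORAD holds Pumilio proteins away from their messages, and NEAT1 and MALAT1 are nuclear RNAs of paraspeckles and speckles. AL161431.1 was the least even of them, at 106, 439 and 300.1 CPM in the wild type controls, 299, 249 and 224 CPM in wild type bleomycin, 186, 83.5 and 209 CPM in knockout control and 301, 233 and 192 CPM in knockout bleomycin. Its groups overlapped, and neither bleomycin test passed, at a log2 fold change of -0.13 in wild type (SE 0.43, adjusted p = 0.836) and of 0.60 with SE 0.44 in the knockout (adjusted p = 0.292), or 0.29 without knockout control replicate 2.

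The members together held 0.194%, 0.254% and 0.243% of the counts in the wild type controls and 0.332%, 0.334% and 0.300% after bleomycin. In knockout cells they held 0.224%, 0.256% and 0.231% in control medium and 0.323%, 0.322% and 0.297% after bleomycin. Every bleomycin library lay above every control library in both genotypes. Since the counts themselves chose the members, this is a description and was given no test.

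The first comparison set bleomycin against control medium in wild type cells and asks which lincRNAs respond to DNA damage in bronchial epithelium. Of the 166 members, 93 passed edgeR's test, or 56.0%, against 43.5% of all 16702 genes tested and 46.8% of the protein-coding genes with at least 600 counts. They divided into 66 that rose (39.8%, against 23.9% of all genes tested) and 27 that fell (16.3%, against 19.6%). At least a 2-fold change was seen in 46, or 27.7%, against 18.3% of all genes tested. The median log2 fold change of the members was 0.24, against -0.04 for protein-coding genes with at least 600 counts, and the median size of the change was 0.59 against 0.34. The 3 control and 3 bleomycin libraries did not overlap in 70.5% of members, against 61.3% of all genes tested. The gap in calls was smaller in some fits and wider in others. Without knockout control replicate 2 in the shared fit, 61.4% of members passed, against 56.6% of all genes tested. With edgeR on the wild type libraries alone, 59.6% passed, against 56.0%. The rule favours neither medium, but a member scarce in control medium could enter only through its bleomycin libraries. Of 26 members with under 300 counts over the 6 control libraries, 23 rose and 0 fell, and of 18 with under 300 counts over the 6 bleomycin libraries, 0 rose and 8 fell. Among the 122 with at least 300 counts in each medium, 43 rose and 19 fell. As the members were chosen on these counts, none of these shares supports a statement on lincRNAs as a class. In bulk RNA a change per cell and a change in which cells make up the culture cannot be told apart.

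**Figure D1:**
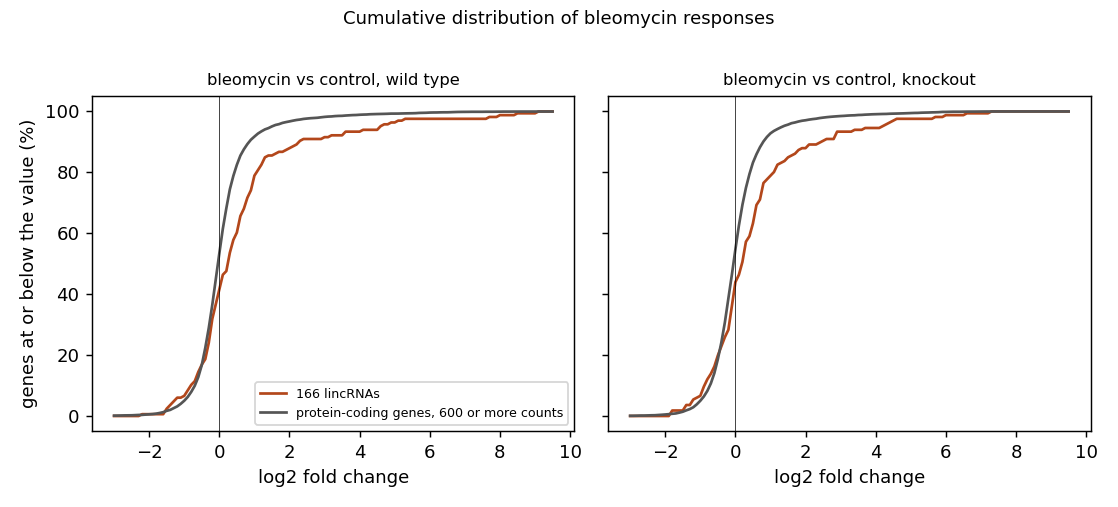
Cumulative share of genes (%) at or below each log2 fold change of bleomycin against control, for the 166 lincRNAs and for the 11397 protein-coding genes with at least 600 counts, in wild type cells (left) and knockout cells (right). The lincRNA curve lies to the right of the protein-coding curve over most of its upper range, with medians of 0.24 against -0.04 in wild type and 0.16 against -0.06 in knockout cells.

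The largest increases were in RNAs almost silent in control medium. PINCR (ENSG00000224294, chrX:43176994-43226598, plus strand), named as a p53-induced noncoding RNA, was at 0, 0.0454 and 0.108 CPM in the wild type controls and at 19.3, 18.3 and 20.0 CPM after bleomycin. The 3 control libraries held 3 counts in all against 1066, a ratio of 385 with an exact 95% interval of 131 to 1870 that covers counting error only (adjusted p = 5.68e-10, edgeR). In knockout cells it went from 0.242, 0.124 and 0.383 CPM to 14.0, 16.6 and 16.5 CPM, or 13 against 835 counts, a ratio of 61.8 (35.9 to 116). The control and bleomycin libraries were far apart in both genotypes.

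PURPL (ENSG00000250337, chr5:27472292-27496401, plus strand), a p53-induced RNA known to hold p53 levels down, followed the same course. It was at 0, 0.0454 and 0.108 CPM in the wild type controls and 14.1, 14.3 and 14.7 CPM after bleomycin, 3 counts against 799 (ratio 289, interval 98.4 to 1402, adjusted p = 7.07e-10). Knockout libraries went from 0.181, 0.249 and 0.273 CPM to 10.3, 11.9 and 13.6 CPM, 12 counts against 637 (ratio 51.0, interval 29.02 to 99.3). The sequence before its start is printed above. Fitted log2 fold changes of these scarce RNAs moved with single libraries: without wild type control replicate 3 they went from 8.40 to 9.28 for PINCR and from 7.99 to 8.86 for PURPL.

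LINC01629 and LINC02086 are little described. LINC01629 (ENSG00000258602, chr14:76959638-76965802, plus) was at 0, 0.0454 and 0 CPM in the wild type controls and 12.3, 13.7 and 12.2 CPM after bleomycin, 1 count against 706 (ratio 765, interval 137 to 30258, adjusted p = 3.01e-09). In knockout cells it was at 0.0604, 0 and 0.0547 CPM and then 7.05, 8.56 and 5.44 CPM, 2 counts against 372 (ratio 179, interval 49.2 to 1482). Every knockout bleomycin library lay below every wild type bleomycin library. LINC02086 (ENSG00000244649, chr17:48646923-48707346, plus) was at 0.0509, 0.0454 and 0 CPM and then 7.59, 8.08 and 8.87 CPM in wild type cells, 2 counts against 454 (ratio 246, interval 67.7 to 2037, adjusted p = 1.83e-08). Knockout cells gave 3 counts against 325 (ratio 104, interval 35.3 to 508). With counts this few the size of the increase is known only roughly, though no control library came near a bleomycin library. The fitted LINC01629 value in wild type cells went from 9.09 to 10.84 without wild type control replicate 2, and that of LINC02086 in knockout cells from 6.54 to 7.34 without knockout control replicate 3.

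**Figure D2:**
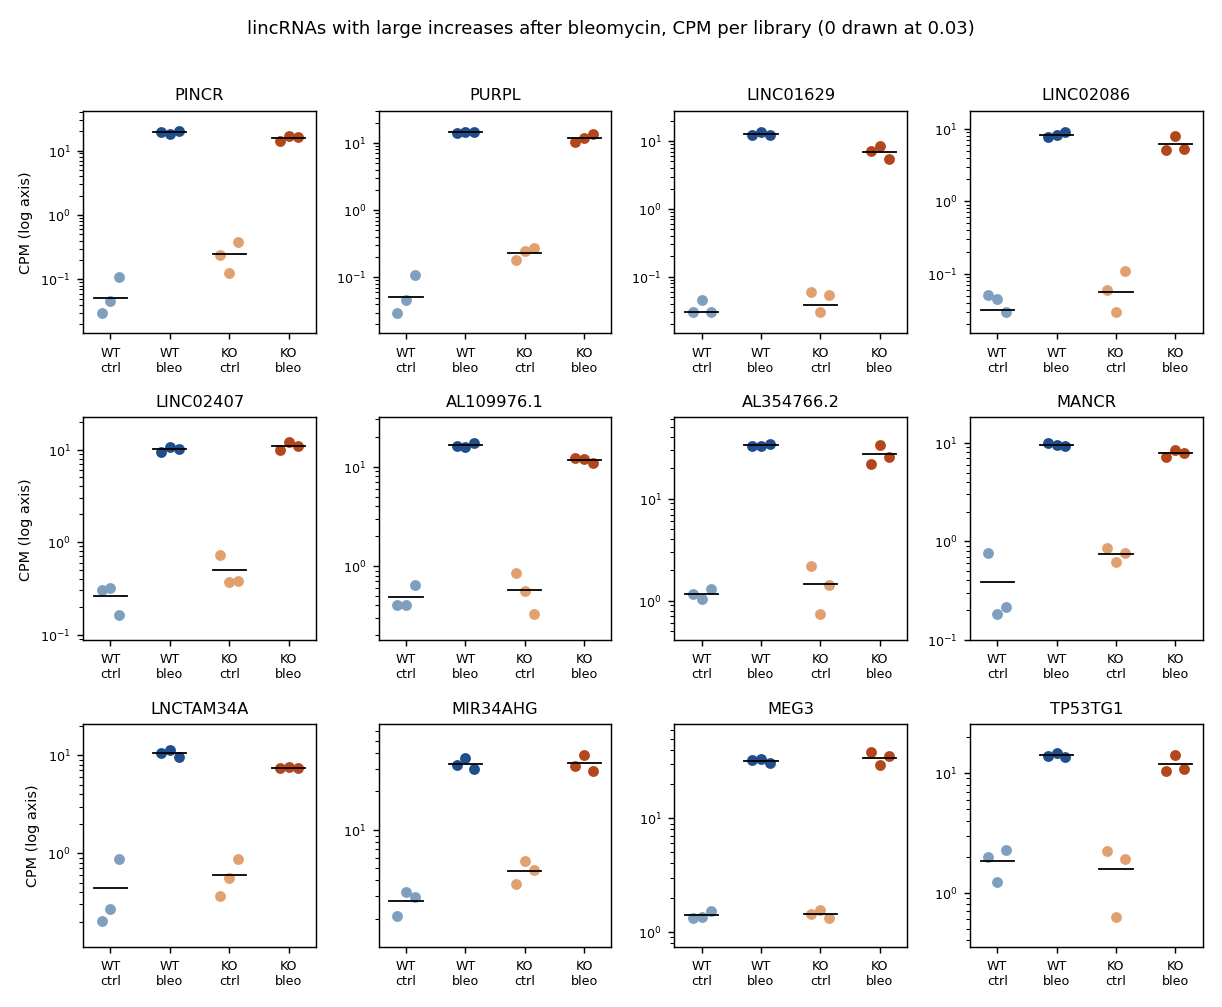
CPM (log axis, values and means below 0.03 drawn at 0.03) of 12 lincRNAs that rose after bleomycin in each of the 12 libraries, with a bar at the group mean, for wild type (WT, blue) and knockout (KO, orange) cells in control medium (ctrl) and bleomycin (bleo). In each panel every bleomycin library lies above every control library of its genotype, as with PINCR at 18.3 to 20.0 CPM against at most 0.108 CPM in wild type cells.

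Of the 10 members that the naming rule took as the top risers in wild type cells, the remaining 6 were measurable in control medium. LINC02407 (ENSG00000257219) went from 0.305, 0.318 and 0.162 CPM to 9.39, 10.7 and 10.1 CPM (log2 fold change 5.21, SE 0.26). AL109976.1 (ENSG00000277287) went from 0.407, 0.409 and 0.649 CPM to 16.1, 15.9 and 17.1 CPM (5.06, SE 0.23). AL354766.2 (ENSG00000236028), a short transcript that overlaps the coding gene EYA2 on the other strand, went from 1.17, 1.04 and 1.30 CPM to 33.1, 33.1 and 34.5 CPM (4.84, SE 0.26). Its high mean FPKM therefore came from the bleomycin libraries. EYA2 itself fell (-0.54, adjusted p = 0.00524), so the 2 strands of that locus moved in opposite directions in the deposited counts. MANCR (ENSG00000231298), known as a mitotically associated RNA, rose from 0.763, 0.182 and 0.216 CPM to 9.91, 9.46 and 9.40 CPM (4.62, SE 0.32, and 5.55 without wild type control replicate 1). LNCTAM34A (ENSG00000234546) rose from 0.204, 0.272 and 0.865 CPM to 10.5, 11.4 and 9.56 CPM (4.56, SE 0.35, and 5.40 without wild type control replicate 3). MEG3 (ENSG00000214548, chr14:100779410-100861031, plus), an imprinted RNA with tumour-suppressing activity and a link to p53, was the most even: it stood at 1.32, 1.36 and 1.51 CPM in control medium and 32.6, 33.0 and 30.6 CPM after bleomycin, 22.8-fold higher (4.51, SE 0.14, adjusted p = 9.45e-11).

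The same 9 members of a list of 20 lincRNAs linked to p53 or DNA damage were examined in both genotypes; they are the ones that reached the count threshold. In wild type cells 8 rose and 0 fell, with a median log2 fold change of 1.85, against 0.02 for all genes tested, of which 23.9% rose. The list was drawn up with earlier results of the series known and is no independent evidence of direction. MIR34AHG (ENSG00000228526, chr1:9148011-9198906, minus), the host of miR-34a and a p53 target, went from 2.09, 3.22 and 2.97 CPM to 32.2, 36.5 and 30.3 CPM, 11.9-fold higher (3.57, SE 0.19, adjusted p = 1.05e-08). TP53TG1 (ENSG00000182165), named as p53 target gene 1, went from 1.98, 1.23 and 2.27 CPM to 14.0, 14.6 and 13.6 CPM (2.95, SE 0.30). PVT1 (ENSG00000249859), which lies beside the growth gene MYC, went from 11.1, 11.99 and 12.8 CPM to 44.4, 45.4 and 39.6 CPM, 3.61-fold higher (1.85, SE 0.10, adjusted p = 1.01e-08). None of these groups overlapped. LINC00467 rose by 1.13 (SE 0.21) and MIR22HG, at 0.15 (SE 0.10, adjusted p = 0.26), did not pass.

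Smaller but called increases were seen in abundant nuclear and cytoplasmic RNAs. NEAT1 (ENSG00000245532, chr11:65422774-65445540, plus), the architectural RNA of paraspeckles, was at 261, 362 and 369.7 CPM in the wild type controls and 583, 625 and 449 CPM after bleomycin, 1.67-fold higher (0.74, SE 0.19, adjusted p = 0.00627). MALAT1 (ENSG00000251562), a nuclear speckle RNA, went from 60.5, 72.5 and 102 CPM to 126, 136 and 113 CPM (0.67, SE 0.16, adjusted p = 0.00461). NORAD (ENSG00000260032, chr20:36045622-36050960, minus) went from 415, 396 and 404 CPM to 629, 597 and 613 CPM (0.60, SE 0.14, adjusted p = 0.00324). In all 3 the lowest bleomycin library lay above the highest control library. The 3 members grouped in a list as nuclear body RNAs (NEAT1, MALAT1 and MEG3) rose in both genotypes, where 23.9% and 22.5% of all genes tested rose. Of the 5 genes of that list tested, members or not, 2 rose and 2 fell in knockout cells without knockout control replicate 2. In knockout cells NEAT1 went from 328, 485 and 343 CPM to 642, 653 and 489 CPM (0.62, SE 0.19, adjusted p = 0.0168) and MALAT1 from 125, 126 and 108 CPM to 193, 163 and 154 CPM (0.51, SE 0.16, adjusted p = 0.0226). The knockout calls were narrow: NEAT1 was not called without knockout control replicate 1 (0.52) or 3 (0.54) or knockout bleomycin replicate 1 (0.56) or 2 (0.55), nor MALAT1 without knockout control replicate 2 (0.54) or 3 (0.43) or knockout bleomycin replicate 1 (0.40).

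Among transcripts of the proteins that work with these RNAs, more fell than rose. Of 17 for paraspeckle proteins, 10 fell (58.8%) and 1 rose (5.88%) in wild type cells (list median -0.38), where 19.6% of all genes tested fell and 23.9% rose. SFPQ, an RNA-binding protein that NEAT1 needs for paraspeckles, fell by 0.67 (SE 0.08, adjusted p = 1.1e-05). CIRBP, a cold-inducible RNA-binding protein, was the member that rose (0.64, SE 0.17). In knockout cells 11 fell and 0 rose, with SFPQ at -0.60; without knockout control replicate 2, 12 fell and 1 rose, CIRBP going from 0.33 to 0.66 (adjusted p = 1.17e-07). Of 8 RNA partners of single lincRNAs, PUM2, a Pumilio protein that NORAD binds, fell by 0.38 (SE 0.08) in wild type and 0.29 (SE 0.08) in knockout cells, as did the double-stranded RNA binder STAU1, by 0.40 and 0.26. The nuclear exosome, its adaptors and the Integrator complex degrade or end noncoding transcripts; of 33 such genes tested, 12 fell (36.4%) and 2 rose (6.06%) in wild type cells. In knockout cells 9 fell (27.3%) and 1 rose (3.03%), where 20.7% of all genes tested fell and 22.5% rose, and 15 fell and 3 rose without knockout control replicate 2. MTREX, the exosome helicase, fell by 0.39 (SE 0.10) and 0.66 (SE 0.10). DIS3, a catalytic exosome subunit, rose by 0.44 (SE 0.09) in wild type cells.

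Host transcripts of small RNAs went both ways. Of 12 listed microRNA hosts, a list without MEG3, 5 rose (41.7%) and 3 fell (25.0%) in wild type cells, against 23.9% and 19.6% of all genes tested, and their median was 0.0090, against 0.023. MIR34AHG and PVT1 rose most within that list. MIR222HG (ENSG00000270069), host of the seed-sharing pair miR-221 and miR-222, went from 4.99, 5.72 and 5.03 CPM to 9.65, 10.4 and 9.24 CPM (0.89, SE 0.19, adjusted p = 0.00192). FTX, an X-linked host, rose by 0.54 (SE 0.16) and MIR3142HG, host of miR-146a, by 0.45 (SE 0.13, adjusted p = 0.0134). The MIR3142HG call was lost without wild type control replicate 3 or wild type bleomycin replicate 1 (0.39 in each), and that of FTX without wild type control replicate 1 (0.47) or wild type bleomycin replicate 2 (0.51) and in the limma fits on FPKM (0.22 to 0.47). MIR155HG (-0.14) and LINC00472 (-0.16), host of miR-30a, did not pass.

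MIR210HG (ENSG00000247095, chr11:565660-568457, minus), host of the hypoxia-induced miR-210, had the largest fitted decrease of any member in wild type cells. It was at 17.7, 16.7 and 19.2 CPM in the wild type controls and 4.03, 4.24 and 3.21 CPM after bleomycin, 4.67-fold lower (-2.22, SE 0.33, adjusted p = 0.000151). In knockout cells it went from 12.3, 32.7 and 13.8 CPM to 7.11, 4.47 and 5.16 CPM (-1.82, SE 0.32). The high control value was that of knockout control replicate 2, and without it the fall was -1.24 (adjusted p = 2.51e-06). MIR503HG (ENSG00000223749), host of miR-503, fell in wild type cells from 6.21, 6.67 and 7.57 CPM to 2.99, 3.38 and 2.30 CPM (-1.24, SE 0.22, adjusted p = 0.000577), and in knockout cells by 1.43 (SE 0.22). Neither RNA overlapped between media in either genotype. MIRLET7BHG was called only in the knockout test, where it fell by 0.75 (SE 0.20, adjusted p = 0.00841), against -0.34 (adjusted p = 0.184) in wild type cells; the difference did not pass.

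The 5 snoRNA hosts, whose introns hold the guide RNAs that modify ribosomal RNA, were also divided, with 3 higher and 2 lower in wild type cells and 2 higher and 2 lower in knockout cells, where 23.9% and 19.6%, and 22.5% and 20.7%, of all genes tested did so. SNHG8 (ENSG00000269893) rose from 8.19, 5.72 and 5.24 CPM to 25.8, 29.6 and 27.4 CPM in wild type cells, 4.32-fold (2.11, SE 0.28, adjusted p = 5.53e-05). SNHG15 rose by 0.59 (SE 0.12), while SNHG4 (ENSG00000281398) fell from 35.1, 37.6 and 35.0 CPM to 18.9, 18.4 and 14.1 CPM, 2.09-fold (-1.07, SE 0.12, adjusted p = 1.28e-05), and SNHG19 fell by 0.98 (SE 0.26). EPB41L4A-AS1 (ENSG00000224032) rose from 15.4, 15.7 and 13.3 CPM to 30.1, 31.4 and 30.9 CPM (1.06, SE 0.31, adjusted p = 0.0149), a call lost without wild type control replicate 3 (0.98). Its knockout controls stood at 16.7, 42.9 and 14.5 CPM and its knockout bleomycin libraries at 26.5, 32.2 and 28.3 CPM (0.23, SE 0.31, adjusted p = 0.568). The 42.9 was again knockout control replicate 2, and without that library the knockout change was 0.89 (adjusted p = 1.18e-06). SNHG8 had the same outlying point, 6.53, 14.7 and 5.90 CPM in knockout control against 20.7, 20.9 and 20.9 CPM in bleomycin (1.21, SE 0.28, adjusted p = 0.00351), and the change was 1.74 without that library (adjusted p = 5.68e-09).

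**Figure D3:**
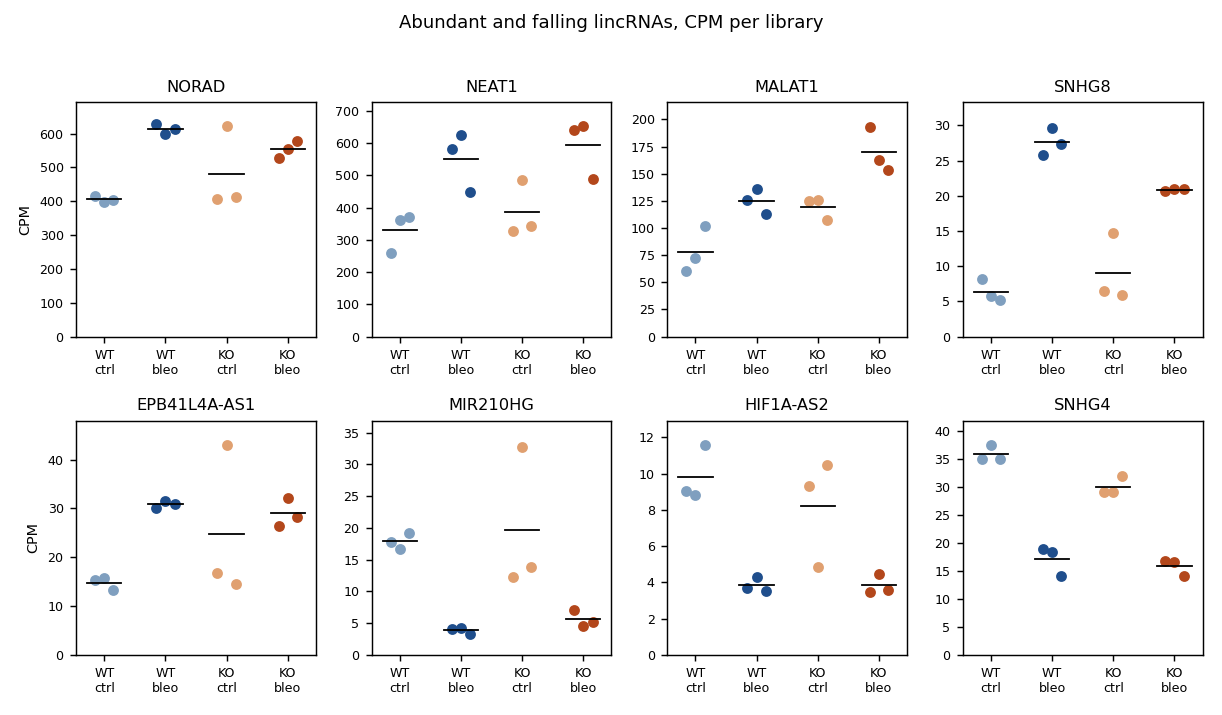
CPM (linear axis from 0) of 8 abundant or falling lincRNAs in each of the 12 libraries, with a bar at the group mean, for wild type (WT, blue) and knockout (KO, orange) cells in control medium (ctrl) and bleomycin (bleo). Knockout control replicate 2 is the high point in the NORAD (623 CPM), EPB41L4A-AS1 (42.9 CPM) and MIR210HG (32.7 CPM) panels.

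The other members that fell most in wild type cells were LINC01224 (-1.57, SE 0.17), LINC01615 (-1.55, SE 0.20), AL590004.3 (-1.54, SE 0.31), SFTA1P (-1.44, SE 0.42), GAS1RR (-1.42, SE 0.21), HIF1A-AS2 (-1.36, SE 0.25), AC125807.2 (-1.35, SE 0.14) and BAIAP2-DT (-1.23, SE 0.12). LINC01615 (ENSG00000223485), whose promoter is printed above with a pair of AP-1 matches, went from 4.32, 4.04 and 4.49 CPM to 1.45, 1.15 and 1.76 CPM. GAS1RR (ENSG00000226237), an RNA made beside the growth arrest gene GAS1, went from 4.83, 5.40 and 4.49 CPM to 1.86, 1.66 and 1.98 CPM. GAS1 itself, which starts 1510 bases away, fell from 190 ± 15.6 to 65.4 ± 6.14 CPM (SD, n = 3, -1.54, SE 0.20, adjusted p = 4.69e-05). HIF1A-AS2 (ENSG00000258667), antisense to the hypoxia factor gene HIF1A, went from 9.06, 8.81 and 11.6 CPM to 3.66, 4.30 and 3.53 CPM, while HIF1A rose from 389 ± 37.7 to 648 ± 8.50 CPM (0.74, SE 0.15, adjusted p = 0.00106). All of these fell in knockout cells too, except SFTA1P (-0.70, SE 0.39, adjusted p = 0.17), which was called without knockout control replicate 2 (-1.09, adjusted p = 0.000284). SFTA1P, a surfactant-associated transcript, was uneven in the knockout controls at 16.7, 4.04 and 13.0 CPM, the low value being that replicate, and its wild type call was lost without wild type bleomycin replicate 1 (-1.29).

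Of 7 lincRNAs linked to epithelial cells, oxidants or cancer, 3 rose (42.9%) and 2 fell (28.6%) in wild type cells and 5 rose (71.4%) and 0 fell in knockout cells; of all genes tested 23.9% and 22.5% rose and 19.6% and 20.7% fell. LINC00973 (ENSG00000240476) went from 4.43, 5.49 and 4.27 CPM to 21.4, 22.1 and 25.0 CPM, 4.81-fold higher (2.27, SE 0.16, adjusted p = 1.53e-07), and rose by 1.89 (SE 0.16) in knockout cells. LINC00941 rose by 1.28 (SE 0.20) and 1.58 (SE 0.21), and LINC00662 by 0.64 (SE 0.16) and 0.63 (SE 0.17). Both LINC00662 calls were lost in limma on log2(FPKM + 1) without a filter (0.25, adjusted p = 0.0694, and 0.21, adjusted p = 0.137), and the knockout call also with the filter (adjusted p = 0.0621). CYTOR, named as a cytoskeleton regulator, fell by 0.27 (SE 0.09, adjusted p = 0.0241) in wild type cells and stood at -0.026 (SE 0.09) in knockout cells. Its near-identical copy MIR4435-2HG gave -0.33 (SE 0.10, adjusted p = 0.0194) and -0.10 (SE 0.10; -0.20, adjusted p = 0.0458, without knockout control replicate 2), and since reads may be split between the copies both values are uncertain. The CYTOR call was lost without any one of 5 of the 6 wild type libraries (-0.29 to -0.23), and the MIR4435-2HG call without wild type control replicate 1 (-0.30) or wild type bleomycin replicate 2 (-0.27).

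The same contrast in knockout cells repeats the question without ANT1. Here 84 members passed, or 50.6%, against 43.2% of all genes tested and 47.4% of protein-coding genes with at least 600 counts. They were 59 that rose (35.5%, against 22.5% of all genes tested) and 25 that fell (15.1%, against 20.7%), with a member median of 0.16 and a median size of 0.56. The count rule bears on these shares too. Of the 26 members with under 300 counts over the 6 control libraries, 23 rose and 0 fell. Of the 18 with under 300 counts over the 6 bleomycin libraries, 0 rose and 7 fell. Among the 122 with at least 300 counts in each medium, 36 rose and 18 fell. Without knockout control replicate 2, 94 members passed (56.6%), against 48.4% of all genes tested. Libraries of the 2 media did not overlap in 54.2% of members, against 51.3% of all genes tested. Of the top risers, 9 of 10 were also top risers in wild type cells. MEG3 rose from 1.45, 1.56 and 1.31 CPM to 38.0, 29.6 and 35.1 CPM, 23.7-fold (4.57, SE 0.14, adjusted p = 1.67e-10). LINC02541 (ENSG00000230943), the exception, went from 0.665, 0.0622 and 0.492 CPM to 7.68, 7.71 and 7.50 CPM (4.19, SE 0.36) and rose by 4.04 (SE 0.32) in wild type cells as well. Of 9 members linked to p53 or DNA damage, 7 rose and 0 fell (median 1.71), the other two being NORAD and MIR22HG, which passed without knockout control replicate 2.

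Among falling members, SH3RF3-AS1 had the largest fitted change in knockout cells. It was at 3.87, 18.0 and 4.81 CPM in control medium and 2.54, 1.91 and 2.83 CPM in bleomycin (-1.87, SE 0.48, adjusted p = 0.00769), and at -0.85 without knockout control replicate 2. Its call was lost in edgeR on the 6 knockout libraries alone (adjusted p = 0.0511) and in limma on log2(FPKM + 1) without a filter (-1.14, adjusted p = 0.0745). Beside MIR210HG and MIR503HG, given above, and LINC01224 and HIF1A-AS2, the others that fell most in knockout cells were AL590004.3 (-1.86, SE 0.32), LINC01615 (-1.47, SE 0.19), AC011815.1 (-1.24, SE 0.23), BAIAP2-DT (-1.23, SE 0.12) and AC125807.2 (-1.14, SE 0.14). NORAD was at 405, 623 and 413 CPM in the knockout controls and 527, 553 and 579 CPM in bleomycin (0.20, SE 0.14, adjusted p = 0.254). Without knockout control replicate 2 it was 0.43 higher (adjusted p = 7.1e-05). MIR3142HG (0.43), AC092171.2 (0.65), AL390728.6 (0.45) and MIR22HG (0.33) did not pass in knockout cells with all libraries and passed without that one.

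Most called changes were found in both genotypes. Of the 166 members, 69 were called in both and all 69 in the same direction (51 higher, 18 lower), 24 in wild type cells alone, 15 in knockout cells alone and 58 in neither. The sign was the same in 146. Of the 69, 46 had the larger fitted change in wild type cells. The test of that difference, the interaction, called 0 members and 0 of all 16702 genes (13 members at an unadjusted p below 0.05, or 7.83%, against 4.61% of all genes). Its smallest values were PINCR (-2.49, SE 0.67, adjusted p = 0.899, edgeR) and PURPL (-2.36, SE 0.64, adjusted p = 0.899), both resting on the 3 counts of their wild type controls. MIR34AHG (-0.77, SE 0.26) and MANCR (-1.23, SE 0.48) had the same sign. No share over all genes is given here for the split of calls or for the 46 of 69. Both counts include knockout control replicate 2. Without it the knockout changes of SNHG8, EPB41L4A-AS1 and NORAD were larger, and those of MIR210HG and SH3RF3-AS1 smaller.

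**Figure D4:**
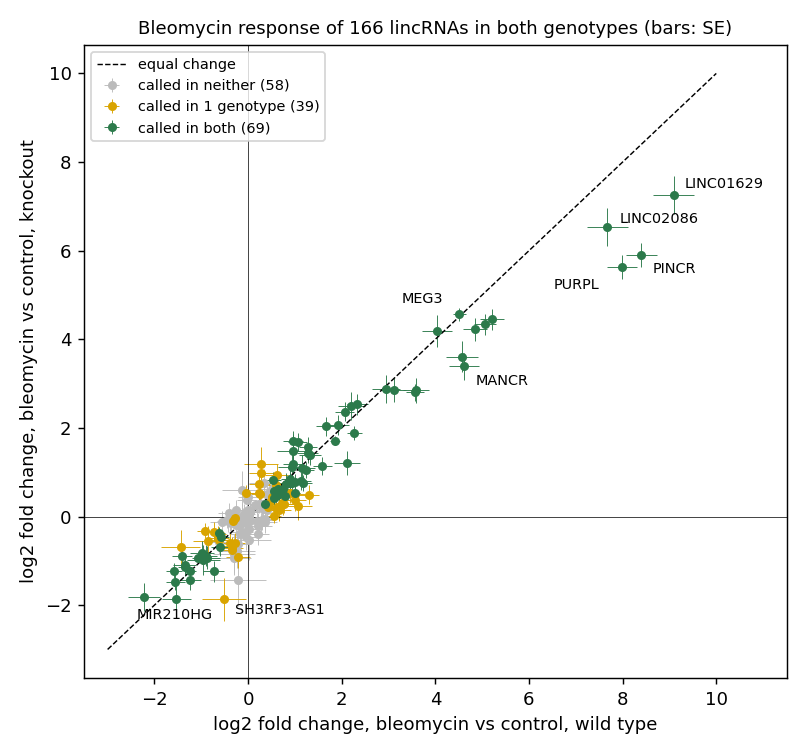
Log2 fold change of bleomycin against control for the 166 lincRNAs in wild type (x axis) and knockout cells (y axis), with SE bars, coloured by whether the member passed in both genotypes (69), 1 (39) or neither (58); the dashed line marks equal change. The 69 called in both all lie in the lower left or upper right of the plot, and PINCR, PURPL and LINC01629 lie below the line while no member passed the test of the difference.

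Knockout against wild type asks what loss of ANT1 does on its own and under bleomycin. In control medium 0 of 166 members passed edgeR's test, where 0.168% of all genes tested did; 19 members had an unadjusted p below 0.05 (11.4%, against 9.94% of all genes), and DESeq2 called 2, MALAT1 and MIR34AHG (1.2%, against 1.64% of all genes it tested). MALAT1 was at 125, 126 and 108 CPM in the knockout controls against 60.5, 72.5 and 102 CPM in wild type, every knockout library being above every wild type library (0.61, SE 0.16, adjusted p = 0.227). MIR34AHG was at 3.75, 5.72 and 4.81 CPM against 2.09, 3.22 and 2.97 CPM, also without overlap (0.78, SE 0.21, adjusted p = 0.216). Such non-overlap was seen in 14.5% of members and 12.2% of all genes tested. PINCR gave 13 counts against 3 and PURPL 12 against 3, ratios of 5.12 (1.41 to 28.02) and 4.73 (1.28 to 26.1). Their adjusted p of 0.277 and 0.312 did not pass. These comparisons share the wild type controls with the bleomycin contrast of those cells, so a low wild type control value enters both.

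Under bleomycin 0 members passed edgeR's test between genotypes, where 0.0479% of all genes did; 14 had an unadjusted p below 0.05 (8.43%, against 6.6% of all genes), and DESeq2 called 1, LINC01629 (0.602%, against 0.384% of all genes it tested). LINC01629 was lower in knockout cells (-0.86, SE 0.20, adjusted p = 0.244), at the per-library values given above. MIR4435-2HG was at 43.0, 42.6 and 44.8 CPM in knockout bleomycin against 35.5, 31.1 and 34.5 CPM in wild type bleomycin (0.37, SE 0.10, adjusted p = 0.375), and CYTOR at 50.6, 51.6 and 47.4 CPM against 40.0, 41.5 and 39.8 CPM (0.30, SE 0.09, adjusted p = 0.427). SFTA1P was at 4.89, 8.93 and 6.96 CPM against 2.48, 3.21 and 3.74 CPM (1.15, SE 0.42, adjusted p = 0.59). None of these groups overlapped, as was so for 17.5% of members and 18.6% of all genes tested. When knockout control replicate 2 was left out of the shared fit, 5 members passed (3.01%, against 1.71% of all genes tested): CYTOR, MIR4435-2HG, AC006058.1, SFTA1P and LINC01629. A fit on the 6 bleomycin libraries alone called 9 members (5.42%, against 1.94%).

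Many lincRNAs start back to back with a protein-coding gene, from a shared promoter region. Of the 166, 39 started within 1000 bases of a protein-coding gene on the other strand, and 38 of those genes were tested. The 39 pairs include 11 that overlap, whose reads may be mixed, as the strand setting of the counting is not stated. In wild type cells both partners were called in 10 pairs, 7 in the same and 3 in opposite directions, the lincRNA alone in 5 and the coding gene alone in 13. The coding gene was thus called beside 66.7% of the 15 called lincRNAs and 56.5% of the 23 others. TP53TG1 and CROT, which encodes a peroxisomal carnitine acyltransferase, start 166 bases apart, and CROT rose with it (1.38, SE 0.10, adjusted p = 1.65e-07). SLC4A11, a membrane transporter gene 146 bases from AL109976.1, rose by 1.47 (SE 0.18), and ITGA3, the integrin alpha 3 gene 229 bases from PICART1, by 1.16 (SE 0.10). PICART1 itself went from 0.407, 0.999 and 0.811 CPM to 10.7, 8.83 and 7.53 CPM (3.59, SE 0.29). BAIAP2 fell with BAIAP2-DT (-0.50, SE 0.11). Against these, TRAM2-AS1 rose by 1.30 (SE 0.21) while TRAM2, 392 bases away, fell by 0.86 (SE 0.10), and NUP50-DT and PAXIP1-AS1 rose while NUP50 (-0.28) and PAXIP1 (-0.59) fell. In knockout cells both partners were called in 7 pairs, 6 in the same direction and 1 opposite. The coding gene was called there beside 63.6% of the 11 called lincRNAs and 40.7% of the 27 others. Of all genes tested, 43.5% were called in wild type and 43.2% in knockout cells. The pairs are few, and the differences between these shares were not tested.

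**Figure D5:**
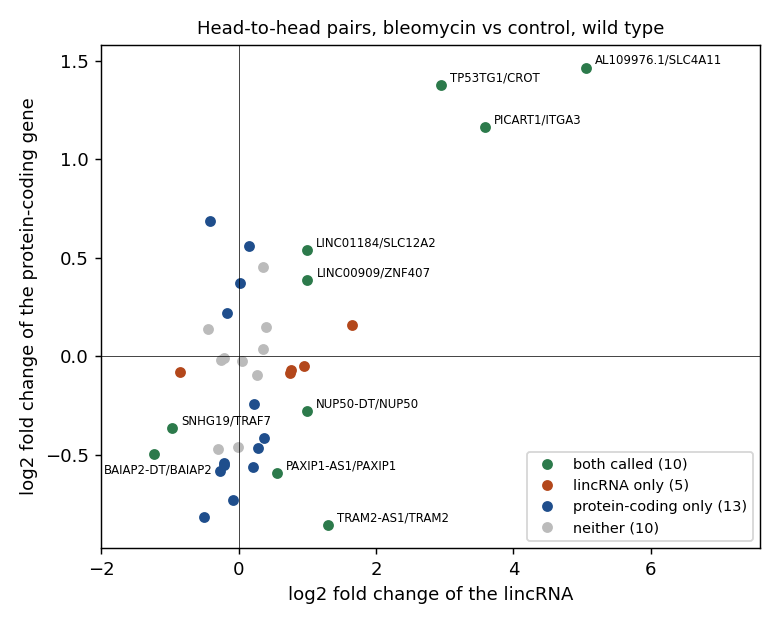
Log2 fold change of bleomycin against control in wild type cells for 38 lincRNAs (x axis) and the protein-coding gene that starts within 1000 bases on the other strand (y axis), coloured by which partner passed. The 10 pairs with both called are named; TP53TG1/CROT, AL109976.1/SLC4A11 and PICART1/ITGA3 lie at the upper right, and TRAM2-AS1/TRAM2 at the lower right.

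Over the nearest protein-coding gene at any distance or strand, the neighbour was called about as often beside called members as beside the others. Of 140 members whose nearest coding gene was tested, both were called in 40 in wild type cells, the member alone in 38, the neighbour alone in 32 and neither in 30, so a called neighbour stood beside 51.3% of called members and 51.6% of the rest. In knockout cells both were called in 34, and the shares were 47.9% and 44.9%. The 40 pairs went the same way in 22 and opposite ways in 18, and the 34 in 20 and 14. PVT1 and MYC went opposite ways: MYC fell from 93.6 ± 3.68 to 46.4 ± 1.80 CPM (SD, n = 3, -1.01, SE 0.11, adjusted p = 1.13e-05) in wild type cells, and by 0.71 in knockout cells. RASSF7, the neighbour of MIR210HG, fell with it (-1.09, SE 0.21). MIR34AHG and LNCTAM34A lie antisense to each other over part of their length, and 38 members overlap a coding gene and 37 another noncoding gene with at least 100 counts. The strand setting of the counting is not stated in the labels, so reads of overlapping pairs such as these, AL354766.2 and EYA2, and HIF1A-AS2 and HIF1A may be mixed. A total of 99 members overlap neither kind, among them PINCR, PURPL, MEG3 and GAS1RR.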

How the data were processed

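The authors deposited raw counts and FPKM values for 12 libraries and 58735 genes. Per the submitters' processing notes the aligner was HISAT2 2.0.5 and the counter featureCounts 1.5.0-p3. Build and strand setting are not stated in the labels; all 166 members have the same identifier and coordinates in GENCODE on GRCh38. Counts were tested with edgeR 4.0.16 in R 4.3.3 (filterByExpr, 16702 genes; TMM; robust glmQLFit; 4 group means over 12 libraries), with Benjamini-Hochberg adjustment over all genes tested and a threshold of 0.05. CPM uses TMM-scaled library sizes. SE was taken as the size of the log2 fold change over the root of the F statistic. FPKM values as deposited gave levels between genes and were tested with limma 3.58.1 as an alternative; DESeq2 1.42.0, other scalings and filters, a replicate block and leaving out each library were others. The scripts were tested on simulated data. Biological replicates are so called by the series. Each edgeR p-value sets a change against the spread between replicates, estimated over all 4 groups in 1 fit. Wild type calls therefore also depend on the knockout libraries. In wild type cells 43.5% of all genes tested were called, and 56.6% without knockout control replicate 2. Named members were the 12 of highest mean FPKM, up to 10 rising and 10 falling members per comparison by size of change with no overlap of CPM, and list members; others were chosen after their values were seen. The members and lists were chosen with earlier results of these data known. A few members are not reported by name.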

Additional observations from a re-analysis of the deposited data

How the results depend on the processing

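The count of members called ran from 76 to 102 in wild type and from 67 to 94 in knockout cells over the libraries left out in turn, and was 0 to 0 between genotypes in control medium, 0 to 5 under bleomycin and 0 to 0 for the interaction. At the lowest and highest counts the wild type shares were 45.8% and 61.4%, against 35.5% and 56.6% of all genes tested. The knockout shares were 40.4% and 56.6%, against 34.2% and 48.4%. The replicate numbers did not pair the samples (18 same-numbered pairs, correlations -0.13 to 0.11, 1 over 0.1). With a replicate block 89 (53.6%), 79 (47.6%), 0, 0 and 0 members were called. Of all genes tested, that fit called 41.4% in wild type and 40.5% in knockout cells. Between genotypes it called 0.0659% in control medium and 0.0239% under bleomycin. At a threshold of 1200 counts, 54 of the 83 lincRNAs that reached it were called in wild type and 49 of the 83 in knockout cells. At 300 counts, 129 of the 296 that reached it were called in knockout cells. Such counts grow with the number of lincRNAs that reach a threshold and do not show a larger share called. Of all genes tested in the main fit, 43.5% were called in wild type cells and 43.2% in knockout cells. Between genotypes in control medium, DESeq2 and edgeR without the filter each called 2 (1.2%, against 1.64% and 0.837% of all genes tested). Under bleomycin DESeq2 called 1 (0.602%, against 0.384% of all genes tested) and edgeR without the filter 2 (1.2%, against 0.211%). There edgeR on the bleomycin libraries alone called 9 (5.42%, against 1.94%) and limma on log2(FPKM + 1) 1 (0.613%, against 0.117%). The cause of these differences between fits was not tested.

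The sign turned in 5 named members, in contrasts where none was called with all libraries. AL161431.1 in wild type cells was 0.069 with limma on log2(FPKM + 1), with or without the filter, 0.076 with a pseudocount of 0.1, and -0.53 (without wild type control replicate 1) to 0.34 (without replicate 2) over the libraries left out. LINC00472 ran from -0.41 (without wild type bleomycin replicate 1) to 0.082 (without replicate 3), and was 0.02 without wild type control replicate 2. In knockout cells AL390728.6 ran from -0.056 to 0.45 (without knockout control replicates 1 and 2), CYTOR from -0.061 (without knockout control replicate 2) to 0.019 (without knockout bleomycin replicate 3) and EPB41L4A-AS1 from -0.041 to 0.89 (without knockout control replicates 3 and 2). Using only starts within 1000 bases of GENCODE was an alternative chosen after seeing the data. The share of member promoters with each of the 4 motifs then stayed within its 95% binomial interval. The 73 promoters with near starts are part of the 87 that set the interval, so that outcome was nearly fixed beforehand. Calls of single named members, counted together with SLC25A4 between genotypes, were lost in 37 cases and gained in 12 when a library was left out. Under the other settings they were lost in 28 and gained in 5. The SLC25A4 call in control medium was among those lost, as without wild type control replicate 3, where 0 of 17194 genes were called. Depth limits the size of change of members with few control counts.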
